A study of Sus scrofa with 16 samples.

Results

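Each WT and each DMD animal was compared with itself before and after the change to differentiation medium, and the comparison described here is the difference between the 2 genotypes in that change. The change of a gene from proliferation (PROL) to differentiation (DIFF) is called its response. The interaction is the DMD response minus the WT response, on the log2 scale of CPM (counts scaled to the library total), so that a positive value means a rise that was larger, or a fall that was smaller, in DMD. All 16 samples of the series enter it, 8 per genotype, with the animal as the pairing factor. The SCs (satellite cells, the muscle stem cells) came from the intercostal muscle of male piglets in the first week of life, 4 wild-type (WT) and 4 from a pig model of Duchenne muscular dystrophy (DMD) that lacks exon 52 of *DMD*. They had been depleted of cells carrying CD31 or CD45 and selected for integrin-β1, NCAM1 and M-cadherin, and were expanded over several passages. PROL medium held 20% fetal bovine serum and basic fibroblast growth factor, and DIFF medium 5% horse serum. WT_PROL, WT_DIFF, DMD_PROL and DMD_DIFF have 4 samples each, 1 per animal, and animals are numbered 1 to 4 within a genotype. Of 3875 genes in the count table, 2030 had enough counts to be tested.

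SCs leave the cell cycle when growth factors are withdrawn. Myogenic factors such as MyoD, myogenin and the MEF2 proteins then switch on the genes of the contractile apparatus, the sarcomere, and the cells fuse to myotubes. Dystrophin links the cytoskeleton of a muscle fibre to a complex of membrane proteins and through it to the matrix outside, and SCs make it too. Cells derived from the muscle of an animal can also hold fibroblast-like or contractile stromal cells, whose genes overlap with those of a maturing muscle cell. In bulk samples such as these, fewer cells of a type and less RNA per cell cannot be told apart.

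Reads of *DMD* counted 4.37, 3.73, 3.26 and 4.62 CPM in WT_PROL animals 1 to 4, 8.26, 16.2, 11.7 and 12.3 in WT_DIFF, 14.8, 17.7, 18.6 and 19.7 in DMD_PROL and 33.6, 28, 21.6 and 25.6 in DMD_DIFF. Levels were thus higher in DMD than in WT in both states. The response was 1.58 ± 0.40 (log2 ± SE from the fit of all 16 samples, as for all responses and interactions given here) in WT and 0.61 ± 0.31 in DMD, and the interaction of -0.97 ± 0.50 did not pass the test (edgeR adjusted *p* = 0.164). The libraries tag the 3′ ends of transcripts, away from the deleted exon, so these reads do not check the genotype labels. Muscle markers were unequal between the genotypes, and the myogenic factors had few or no counts in WT. *DES* is also on the smooth muscle and pericyte lists used below, so alone it does not show muscle identity. *DES*, the muscle intermediate filament desmin, stood at 59.7, 67.1, 74 and 83.2 CPM in WT_PROL and at 1414, 1102, 931 and 1233 in DMD_PROL, and the groups did not overlap. *MYF5*, a marker of activated SCs, had 0 counts in all 8 WT samples, which allows up to 3 counts, and 30 counts in DMD_PROL and 40 in DMD_DIFF over the 4 samples of each group. *MYOD1* held 8 counts in WT_PROL, 4 in WT_DIFF, 52 in DMD_PROL and 16 in DMD_DIFF. Myogenin (*MYOG*) held 6 counts in WT_PROL, 32 in WT_DIFF, 84 in DMD_PROL and 268 in DMD_DIFF. Its interaction was -0.48 ± 0.81 (edgeR adjusted *p* = 0.713) and that of *MYOD1* -1.02 ± 2.11 (adjusted *p* = 0.773), both too uncertain for a statement, and the sign of each changed when 1 WT animal was left out.

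Sample totals ran from 1110050 to 1781174 counts, and the technical duplicates of a sample correlated across genes with r between 0.9617 and 0.9773 on log2 CPM. The gene listed as *RN18S* took 6.32% to 20.4% of the counts. The highest share was that of DMD_PROL animal 4. The duplicates of this sample also differed most beyond counting error, which r does not show. Their chi-square per degree of freedom on halved counts was 61.8, against 1.34 to 9.74 in the other samples. Without that animal 490 genes had a called interaction against 492 with it, and 445 of these were the same genes.

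Differentiation changed the transcriptome of both genotypes, and the lists of called genes overlapped in part. Calls needed a *p* under 0.05 after Benjamini-Hochberg adjustment (edgeR, quasi-likelihood test) and a log2 change of more than 0.6 in size. In WT 663 of 2030 genes were called, or 32.7%, of which 378 rose (18.6%) and 285 fell (14.0%). DMD SCs had 555 called genes, or 27.3%, with 317 rising (15.6%) and 238 falling (11.7%). Both lists held 297 genes, 261 of them with the same sign. These 261 make 39.4% of the genes called in WT and 47.0% of those called in DMD. A call in 1 genotype alone does not show that the responses differed. The interaction was called for 283 of the 663 genes called in WT and for 230 of the 555 called in DMD. Across all tested genes, which are not independent replicates and share libraries within a genotype, the WT and DMD responses correlated with Pearson's r of 0.46 and Spearman's rho of 0.41.

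The interaction was called for 492 genes, or 24.2% of those tested: 230 were positive (11.3%) and 262 negative (12.9%). It exceeded 1 log2 unit in 307 genes and 2 units in 115. For 431 of the 492 genes the responses of the 4 WT and the 4 DMD animals did not overlap, against 616 of all 2030 genes, or 30.3%. The median interaction of all tested genes was -0.03. With library size alone as the scaling the median was 0.25, and of 540 called genes 401 were positive and 139 negative, so that the split into positive and negative depended on the scaling. Of the 492 genes 369 were also called under that scaling, and 113 of 188 lost and 83 of 135 gained responses kept their class.

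The called genes were put into classes by which response had passed the test. A response was called lost when WT changed and DMD did not (188 genes, of which 119 rose and 69 fell in WT), and gained when DMD changed and WT did not (135 genes, of which 91 rose and 44 fell in DMD). Responses of opposite sign that both passed were called reversed (36 genes, 16 rising in WT and falling in DMD, 20 the other way). Responses of the same sign were weaker in DMD for 34 genes and stronger for 25. The other 74 genes had neither response called and changed with opposite signs. With library size alone as the scaling, 47 rises and 182 falls were lost and 59 responses reversed. A missed threshold does not show the absence of a response. Among the lost genes, 171 of 188 had a DMD response under 0.6 in size, and its 95% interval lay within 1 log2 unit of 0 in 147. Gained genes had a WT response under 0.6 in 122 of 135, with the interval within 1 unit in 108. The median size of the response in lost genes was 1.07 in WT and 0.25 in DMD, and in gained genes 0.30 in WT and 1.26 in DMD; these values follow from the way the classes were formed.

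**Figure D1:**
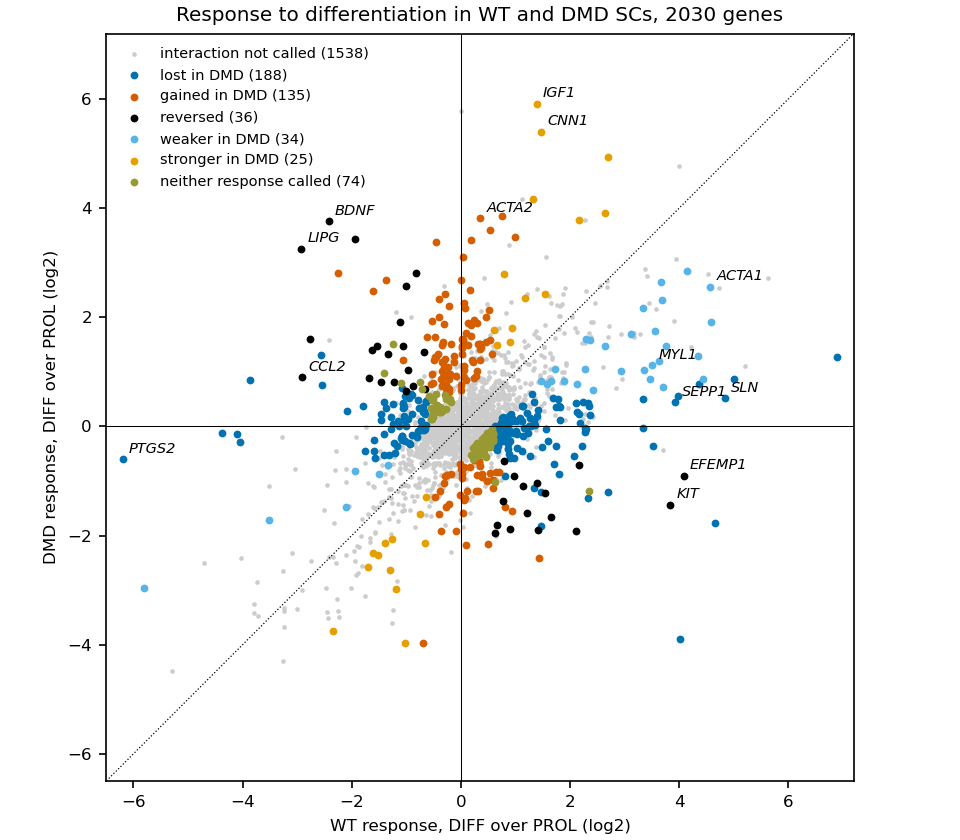
Each point is 1 of the 2030 tested genes, with its WT response on the x axis and its DMD response on the y axis (both DIFF over PROL, log2), coloured by class, and the dotted line marks equal responses. The 188 lost genes lie along the x axis, the 135 gained genes along the y axis and the 36 reversed genes at the upper left and lower right.

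For most of these genes DMD and WT levels differed in DIFF. Tested within 1 state, DMD and WT levels differed for 349 of 1914 genes in PROL, or 18.2%, and for 643 of 1916 in DIFF, or 33.6%. The interaction equals the genotype difference in DIFF minus that in PROL, so these counts describe the same numbers from another side. Of the 492 genes, 247 differed between genotypes in DIFF alone, 67 in PROL alone, 60 in both states with the same sign, 28 in both with opposite signs and 90 in neither. Lost rises were mostly genes on which WT and DMD parted in DIFF: of 119, 87 were lower in DMD_DIFF than in WT_DIFF and 5 higher. Weaker rises had another form. Of 28 such genes, 18 differed in both states with the same sign, among them sarcomere genes whose level in DMD was above WT before and after the medium change. Reversed responses included 10 genes whose genotype difference switched sign between the states.

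**Figure D2:**
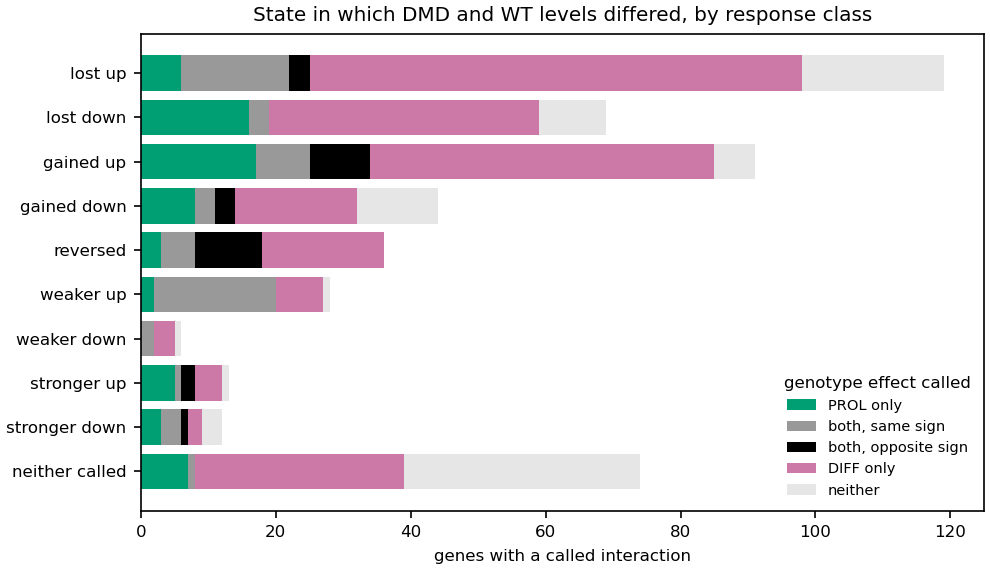
Horizontal bars count the genes with a called interaction (x axis) in each response class (y axis), divided by the state or states in which DMD and WT levels differed. The DIFF-only part is the longest in the lost and gained classes, and the part with the same sign in both states makes up 18 of the 28 weaker rises.

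Of 10 tested smooth muscle genes 9 rose in DMD and 2 in WT. These genes encode the actin, myosin light chain and tropomyosin filaments of smooth muscle and of contractile stromal cells. All 10 tested members had a called interaction, 9 positive and 1 negative, against 24.2% of all genes, and their median response was 0.19 in WT and 2.04 in DMD (0.05 and 0.02 over all genes). *ACTA2*, smooth muscle α-actin, stood at 1050.5, 615, 605 and 742 CPM in WT_PROL and 1551, 681, 679 and 1083 in WT_DIFF. In DMD it went from 738, 821, 892 and 873 to 12090, 11996, 12208 and 10349 CPM. The genotypes overlapped in PROL, while in DIFF the lowest DMD animal was far above the highest WT animal. The response was 0.36 ± 0.10 in WT and 3.81 ± 0.10 in DMD, an interaction of 3.45 ± 0.14 (edgeR adjusted *p* = 1.23e-12). *TAGLN*, the actin-binding transgelin, went from 2033, 1291, 1295 and 1422 to 1769, 805, 939 and 1185 CPM in WT and from 1107, 1483, 1114 and 1491 to 6072, 7191, 7583 and 5232 in DMD, with an interaction of 2.73 ± 0.18 (adjusted *p* = 3.08e-08). Each WT animal was lower in DIFF than in PROL and each DMD animal higher. *TPM2*, a tropomyosin that skeletal muscle also uses, had a WT response of 0.07 ± 0.10 and a DMD response of 2.18 ± 0.10. For *TPM1* the responses were 0.30 ± 0.15 and 1.90 ± 0.15, and for *TPM4*, the tropomyosin of non-muscle filaments, -0.47 ± 0.10 and 1.27 ± 0.10. *CNN1*, the smooth muscle protein calponin, rose in both genotypes. Its levels were 27.7, 11.2, 29.4 and 15.4 CPM in WT_PROL, 154, 20.6, 35 and 61.3 in WT_DIFF, 4.93, 10.1, 12.8 and 10.5 in DMD_PROL and 287, 533, 604 and 236 in DMD_DIFF, and the response of 5.40 ± 0.34 in DMD exceeded the 1.48 ± 0.34 in WT (interaction 3.93 ± 0.51, edgeR adjusted *p* = 0.000157). The remaining positive members were *MYL9*, *VCL* and *SMTN*. The negative one was *DES*, which rose by 1.90 in WT and 0.83 in DMD from the higher DMD level given above. Under the alternatives tried, 8 or 9 members were called positive and 1 negative.

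Of 13 pericyte markers listed 4 were tested, 2 of them also smooth muscle genes, and all 4 had called interactions (against 24.2% of all genes). They had no common direction: *ACTA2* and *ANPEP* were positive through a rise in DMD, *RGS5* through a fall in WT, and *DES* was negative. *ANPEP*, the aminopeptidase CD13, was at 45.2, 33.5, 23.9 and 37 CPM in WT_PROL and 24.8, 7.37, 11.7 and 30 in WT_DIFF, against 8.62, 13.9, 6.99 and 11.8 and 54.7, 79.4, 62 and 48.4 in DMD. It fell in WT and rose in DMD (interaction 3.57 ± 0.41, edgeR adjusted *p* = 1.68e-06). *RGS5*, a regulator of G protein signalling that marks pericytes, fell in WT from 81.6, 37.3, 221 and 80.1 CPM to 1.38, 7.37, 9.07 and 5.45, while DMD had 1.23, 2.53, 9.32 and 6.57 in PROL and 1.4, 0, 10.1 and 5.7 in DIFF. The summed level of the 4 genes was 753 to 1237 CPM in WT_PROL, 919.6 to 1831 in WT_DIFF, 1839 to 2162 in DMD_PROL and 12539.5 to 14485 in DMD_DIFF. In DMD_DIFF *ACTA2*, which is also on the smooth muscle list, made up the greater part of this sum. What part a change in cell types had in these responses was not tested.

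Sarcomere genes rose in both genotypes, with a smaller median log2 response in DMD. Of 22 tested members, 16 rose in WT and 18 in DMD, against 18.6% and 15.6% of all genes. The interaction was called for 11 (50% against 24.2%): 9 were negative, all of them weaker rises, and 2 positive (*TPM1* and *TPM2*). The median response of the list was 2.74 in WT and 1.497 in DMD. In single animals it was 2.56, 1.71, 2.19 and 2.30 in WT and 1.53, 0.997, 1.29 and 2.13 in DMD. The genotypes thus overlapped, as DMD animal 4 was above WT animal 2. *MYL1*, the fast-fibre myosin light chain, rose from 80.1, 74.5, 91.4 and 109 to 938, 736, 1029.7 and 1375 CPM in WT, and from 2317, 2573, 2178 and 1489 to 5345, 4145, 3715 and 5450 in DMD. All DMD_PROL animals were thus above all WT_DIFF animals. The response was 3.50 ± 0.19 in WT and 1.13 ± 0.16 in DMD (interaction -2.37 ± 0.24, edgeR adjusted *p* = 3.01e-05). *ACTA1*, skeletal muscle α-actin, had 59.7, 32.3, 43.5 and 43.1 CPM in WT_PROL and 1222, 712, 1093 and 1230.4 in WT_DIFF, and 695, 819, 724 and 318 and 3093, 4068, 4002 and 3278 in DMD, with an interaction of -2.01 ± 0.26 (adjusted *p* = 0.000148). On the linear CPM scale the order of the genotypes turned round for the sum of the list. The summed level of the 33 sarcomere genes in the table was 3438 to 4944 CPM in WT_PROL and 7448 to 11804 in WT_DIFF, against 13162 to 18257 CPM in DMD_PROL and 45608 to 51447 in DMD_DIFF. Of the 492 called genes, 23 had a mean CPM difference of the opposite sign to their log2 interaction, 19 of them negative on the log2 scale and positive in CPM. *MYL1* and *ACTA1* were among the 19, each with a weaker relative and a larger absolute rise in DMD.

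Regulators of the muscle programme with a called interaction had a more negative log2 change in DMD, which depended on the scaling. The list had 9 tested members, 4 with negative and 0 with positive interactions (44.4% called against 24.2% of all genes). Scaled by library size alone, 2 were positive and 2 negative, and without DMD animal 1 the counts were 2 and 4. Just outside the limits were *HES1* (interaction 1.73, edgeR adjusted *p* = 0.0506) and *ID2* (0.57, adjusted *p* = 0.0448), both positive. *MEF2C*, which activates sarcomere genes, rose in WT from 7.29, 6.21, 10.9 and 9.24 to 44.1, 42.8, 29.8 and 58.6 CPM. DMD_PROL was above that already at 82.5, 98.7, 104 and 93.3 CPM and DMD_DIFF stood at 188, 121, 95.1 and 118, a response of 0.43 ± 0.20 that was not called. *SIX4*, a homeobox factor, had a DMD response of -1.47 ± 0.26 and an interaction of -1.20 ± 0.36 (edgeR adjusted *p* = 0.0155), a call that was lost without WT animal 2. *ID1*, an inhibitor of myogenic factors, fell by 1.71 log2 units in WT and by 2.58 in DMD.

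Of 5 tested genes of the dystrophin-associated complex 2 had a called interaction, both lost rises (40.0% called against 24.2% of all genes). *SGCE*, ε-sarcoglycan, was at 178, 148, 156 and 139 CPM in WT_PROL and 353, 432, 422 and 388 in WT_DIFF, but at 170, 177, 166 and 159 and 147, 196, 209 and 142 in DMD. The DMD response was 0.03 ± 0.12 with a 95% interval of -0.22 to 0.29. *SGCA*, α-sarcoglycan, the form of striated muscle, rose in WT from 13.1, 4.97, 9.79 and 9.24 to 38.6, 39.8, 53.1 and 46.3 CPM. In DMD it held 98.5, 73.4, 139.9 and 98.5 CPM in PROL and 64.5, 117, 114 and 108 in DIFF, above WT in both states (DMD response -0.02 ± 0.20, interaction -2.30 ± 0.34, edgeR adjusted *p* = 3.76e-05). Among 5 tested genes of excitation and calcium handling, 1 was positive and 2 negative (60.0% called). *SLN*, sarcolipin, which inhibits the calcium pump of the sarcoplasmic reticulum, had 0, 1.24, 2.18 and 0 CPM in WT_PROL and 35.8, 19.2, 32.4 and 32.7 in WT_DIFF, against 29.6, 64.5, 49 and 14.4 and 32.2, 113, 69.2 and 21.4 in DMD. Of the 4 groups only WT_PROL was close to 0, and the WT response of 4.84 ± 0.47 rests on that base. *ATP2A2*, the calcium pump SERCA2, fell in WT (-0.70 ± 0.15) and had a DMD response of 0.36 ± 0.15. *CACNA2D1*, a calcium channel subunit, lost its call in 10 of 19 alternatives, without WT animals 1, 2 or 3 and without DMD animals 2, 3 or 4 among them.

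*SEPP1* was the lost rise with the smallest *p*. It encodes selenoprotein P, a plasma carrier of selenium. *SEPP1* stood at 108, 101, 100.1 and 119 CPM in WT_PROL and rose to 1332, 1657, 1598 and 1972 in WT_DIFF, while DMD had 77.6, 88.6, 96.7 and 123 in PROL and 112, 96.9, 122 and 208 in DIFF. The genotypes overlapped in PROL and lay far apart in DIFF (WT response 3.93 ± 0.11, DMD response 0.45 ± 0.11, edgeR adjusted *p* of the interaction = 5.25e-12). *SERPING1*, the C1 inhibitor of the complement cascade, rose from 154, 309, 269 and 183 to 1800.3, 2499, 2480.4 and 2236 CPM in WT and went from 83.8, 49.4, 51.3 and 53.9 to 54.7, 52.5, 56.2 and 68.4 in DMD. *SGK1*, a kinase that glucocorticoids switch on, rose from 56.8, 82, 97.9 and 87.8 to 859.5, 790.2, 1004 and 1064 CPM in WT and went from 24.6, 21.5, 43.1 and 18.4 to 23.8, 19.8, 17.3 and 21.4 in DMD. Neither had a called DMD response: the 95% intervals were -0.35 to 0.30 for *SERPING1* and -0.82 to 0.11 for *SGK1*. *C5H12orf57* belonged to the same class, with a WT response of 2.19 ± 0.13 and a DMD response of 0.07 ± 0.13.

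Complement genes as a list had a median response of 1.72 in WT and 0.78 in DMD. Of 9 tested, 3 had a negative interaction and 0 a positive one (33.3% called against 24.2% of all genes). *C4*, a central component of the cascade, was at 13.1, 32.3, 17.4 and 15.4 CPM in WT_PROL and 355, 383, 504 and 356 in WT_DIFF, against 3.7, 3.8, 6.99 and 3.94 and 7.01, 9.34, 5.76 and 9.97 in DMD, where all 8 samples stayed below the lowest WT sample. *CLU*, the secreted chaperone clusterin that also restrains complement, rose in both genotypes (2.28 ± 0.10 in WT, 1.05 ± 0.10 in DMD), from 2660.5, 4667, 6131 and 4936 to 15249, 24703, 24660 and 22750 CPM in WT and from 1575, 1477, 1343 and 2078 to 3764, 2682, 3256 and 3644 in DMD. The level in WT was above that in DMD in both states, without overlap.

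Matrix genes responded in both directions. Of 26 tested, 8 had a positive and 7 a negative interaction, 57.7% called against 24.2% of all genes, and the list median of 0.05 shows no common direction. *LOX*, which cross-links collagen, rose in WT from 224, 327, 386 and 377 to 1185, 1691, 1663 and 1638 CPM, while DMD went from 431, 373, 399 and 373 to 471, 729, 591 and 409 (interaction -1.79 ± 0.17, edgeR adjusted *p* = 6.06e-07). The small proteoglycan lumican (*LUM*) rose from 197, 360.2, 296 and 206 to 1101, 1399, 1465 and 1401 CPM in WT and stood at 126, 204, 74.6 and 90.6 and 196, 219, 46.1 and 131 in DMD. Decorin (*DCN*), of the same family, rose in both, by 2.14 log2 units in WT and 0.77 in DMD. Of 4 tested fibrillar collagen genes 3 had a called positive interaction (*COL5A2*, *COL1A2* and *COL5A1*), while *COL3A1* had -0.58, under the size limit (edgeR adjusted *p* = 0.0164). *COL5A2* rose from 347, 306, 322 and 296 to 782, 619, 672 and 792 CPM in WT and from 217, 347, 354 and 278 to 1565, 1572, 1769.8 and 1179 in DMD (interaction 1.19 ± 0.15, adjusted *p* = 8.08e-06). *COL1A2*, of type I collagen, rose by 0.66 in WT and 1.49 in DMD on the log2 scale, and *MFAP5*, a microfibril protein, by 2.65 and 3.91. *TIMP2*, an inhibitor of matrix metalloproteinases, had a WT response of 0.48 ± 0.09 and fell in DMD (-1.001 ± 0.09), from 1095, 950.3, 879 and 1330.5 to 444, 510, 509 and 657 CPM. The matrix glycoprotein tenascin C (*TNC*) fell in both, by 3.52 log2 units in WT and 1.72 in DMD.

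Fibroblast markers, 6 of 8 of which are also in the matrix list, had 2 positive and 3 negative interactions (62.5% called against 24.2%). Their summed level was 10661 to 14444 CPM in WT_PROL and 32089 to 36019.8 in WT_DIFF, and 4577 to 5006 in DMD_PROL and 13011 to 15121 in DMD_DIFF. It rose in both genotypes and was higher in WT in both states, and its part in the responses of matrix and complement genes was not tested. Adipocyte markers (0 of 4 tested called, with *ADIPOQ* and *LPL* at 0 counts in all samples), blood cell markers (0 of 3, with *CD3E*, *CD8A*, *HBB* and *FCER1G* at 0), endothelial markers (1 of 4) and neural markers (1 of 2, with *SOX10* at 0) summed to less than the fibroblast markers in every sample. Adipocyte markers summed to 13.1 to 33.5 CPM in WT_PROL, 31.1 to 51.6 in WT_DIFF, 138 to 348 in DMD_PROL and 148 to 363 in DMD_DIFF, higher in DMD without overlap. Endothelial markers summed to 142 to 203 CPM in WT and 35.7 to 74.3 in DMD over both states, lower in DMD without overlap. Neural markers summed to 6.53 to 22.4 CPM in WT_PROL, 11.7 to 57.2 in WT_DIFF, 43.3 to 80.4 in DMD_PROL and 9.34 to 25.9 in DMD_DIFF. Their mean rose in WT (12.1 to 32.1) and fell in DMD (65.2 to 15.5). DMD was higher in PROL without overlap, while the genotypes overlapped in DIFF. Blood cell markers summed to 69.3 to 99.1 CPM in WT and 53.9 to 69.9 in DMD over both states. The part of these cell types in the responses was not tested. The endothelial call was *ERG*, a transcription factor, with 118, 83.2, 112 and 108 CPM in WT_PROL, 31.7, 53.1, 60.9 and 62.7 in WT_DIFF, 12.3, 16.4, 23.3 and 25 in DMD_PROL and 32.2, 21, 21.6 and 38.5 in DMD_DIFF. It fell in WT (-1.03 ± 0.23), and its DMD response of 0.55 ± 0.27 was not called. The neural one was *NEFL*, a neurofilament gene, with responses of 1.65 ± 0.38 in WT and -1.66 ± 0.41 in DMD.

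Genes that cells switch on when nutrients or growth factors are short, many of them targets of FOXO factors, were split. Of 11 tested, 3 had a positive and 4 a negative interaction (63.6% against 24.2% of all genes). *FBXO32*, the muscle ubiquitin ligase atrogin-1, rose from 21.9, 7.45, 7.61 and 10.8 to 66.1, 42.8, 41.4 and 46.3 CPM in WT and went from 19.7, 19, 22.1 and 17.1 to 28, 31.5, 14.4 and 34.2 in DMD. *PDK4*, which blocks pyruvate dehydrogenase, rose in WT from 2.91, 3.73, 7.61 and 0 to 84, 98.8, 172 and 114 CPM and stayed at 2.46, 3.8, 0 and 0 and 0, 5.84, 2.88 and 2.85 in DMD (interaction -4.14 ± 1.22, edgeR adjusted *p* = 0.0205). That call was lost without DMD animal 1 or DMD animal 2, while the WT rise of 5.004 ± 0.51 had a 95% interval of 3.91 to 6.10. *ANGPTL4*, a secreted inhibitor of lipoprotein lipase, rose in both and more in DMD, by 2.69 log2 units in WT from 62.7, 57.1, 101 and 66.2 to 444, 448, 501 and 443 CPM and by 4.93 in DMD from 8.62, 13.9, 10.5 and 7.88 to 319.5, 373, 257 and 311. The DMD animals were below the WT animals in both states, and the gap on the log2 scale was smaller in DIFF. *DDIT4*, an inhibitor of mTORC1 induced by stress, was reversed: WT went from 374, 343, 326 and 263 to 190.1, 231, 206 and 185 CPM and DMD from 164, 127, 159.7 and 179.9 to 387, 366, 502 and 366.

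Glycolysis genes had 5 positive and 2 negative interactions among 16 tested (43.8% called against 24.2%), with a median response of -0.28 in WT and 0.19 in DMD. *LDHA*, lactate dehydrogenase A, fell in WT from 4488, 3268, 4097 and 3506 to 1636, 1365, 1895 and 1432 CPM and stayed at 3535, 4463, 3688 and 3618 and 3166, 4230.5, 6113 and 4212 in DMD (interaction 1.46 ± 0.17, edgeR adjusted *p* = 5.91e-06). *LDHB*, the other subunit, moved in the opposite sense, with 0.24 ± 0.08 in WT and -0.62 ± 0.08 in DMD. The kinase *PDK1*, a relative of *PDK4*, had a WT response of -0.31 ± 0.22 and rose in DMD from 23.4, 39.2, 46.6 and 40.7 to 105, 146, 163 and 131 CPM. The muscle form of phosphoglycerate mutase, *PGAM2*, rose in WT (1.74 ± 0.19), from 14.6, 19.9, 20.7 and 21.6 to 68.9, 56, 55.7 and 80.4 CPM, and was far higher in DMD throughout, at 441, 296, 351 and 227 in PROL and 469, 375, 368 and 433 in DIFF.

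Of 32 respiratory chain genes 4 had a called interaction, 2 in each direction (12.5% against 24.2%). Scaled by library size alone, 7 were positive and 1 negative. Cytochrome *c* (*CYCS*), which carries electrons in the chain, fell in WT from 1113, 819, 1092 and 933 to 309, 257, 271 and 307 CPM, and DMD had 722, 773, 1129.5 and 821 in PROL and 1024, 1048, 1186 and 1161 in DIFF (WT response -1.79 ± 0.09, DMD response 0.38 ± 0.09, edgeR adjusted *p* of the interaction = 4.04e-10). *COX7A1*, the muscle isoform of a cytochrome oxidase subunit, was a lost rise with 1.26 ± 0.14 in WT and 0.01 ± 0.14 in DMD. Among 27 tested genes of fatty acid metabolism, 4 interactions were positive and 5 negative (33.3% called), but 5 and 2 by library size alone. The lipase *LIPG* was at 16, 4.97, 20.7 and 10.8 CPM in WT_PROL and 1.38, 0, 2.59 and 2.73 in WT_DIFF, and at 2.46, 2.53, 11.7 and 3.94 and 47.6, 52.5, 44.7 and 41.3 in DMD. The fatty acid carrier *FABP5* went from 61.2, 68.3, 16.3 and 47.7 to 28.9, 10.3, 13 and 12.3 CPM in WT and from 66.5, 49.4, 81.6 and 63 to 122, 126, 251 and 255 in DMD. Both were reversed, falling in WT and rising in DMD. Sterol synthesis genes rose together, 10 of 11 tested in WT and 9 in DMD (18.6% and 15.6% of all genes), and 2 of them less in DMD (18.2% called), among them *INSIG1* with 2.63 ± 0.22 and 1.48 ± 0.20.

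Antioxidant and detoxifying genes had 1 positive and 6 negative interactions among 22 tested (31.8% called against 24.2%). Catalase (*CAT*) rose from 224, 246, 232 and 223 to 3739.7, 2491, 2556 and 3453 CPM in WT and from 159, 186, 138 and 181 to 263, 298, 274 and 251 in DMD, a rise of 3.70 ± 0.12 against 0.72 ± 0.12 (edgeR adjusted *p* of the interaction = 6.76e-10). Aldehyde dehydrogenase 2 (*ALDH2*) was reversed, with 117, 188, 154 and 129 CPM in WT_PROL and 368, 473, 433 and 435 in WT_DIFF, and 189.7, 125, 133 and 121 and 88.3, 75.9, 44.7 and 39.9 in DMD. The peroxiredoxin *PRDX6* fell by 0.66 log2 units in WT and by 2.14 in DMD. The positive one was *SELM*, selenoprotein M, which had 319, 258, 297 and 297 CPM in WT_PROL and 346, 279, 352 and 334 in WT_DIFF, and rose in DMD from 70.21, 97.4, 97.9 and 84.1 to 440.1, 542, 552 and 440.2. Its interaction thus had the opposite sign to that of *SEPP1*, the other selenoprotein named here. Among lysosome genes 3 of 24 were called (12.5%), all lost rises, led by the protease cathepsin L (*CTSL*, WT response 1.23 ± 0.09, DMD response -0.12 ± 0.09). Their direction depended on the scaling: by library size alone, 6 lysosome genes had a positive interaction and 1 a negative one. For the antioxidant and detoxifying genes that scaling gave 3 positive and 4 negative interactions.

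Of 41 tested ribosomal protein genes 16 rose in WT, while in DMD 0 rose and 0 fell. The interaction was negative for 23 and positive for 0, 56.1% called against 24.2%. The list median in single animals was 0.52, 0.65, 0.56 and 0.51 in WT and -0.21, -0.14, -0.17 and -0.01 in DMD, without overlap. *RPL10* went from 4097, 4419.8, 5006 and 4118 to 8143, 9181, 9448 and 8011 CPM in WT and from 4676, 4739, 4531 and 4628 to 4039, 4116, 4396 and 4594 in DMD (interaction -1.10 ± 0.11, edgeR adjusted *p* = 1.99e-07). *RPS28* had a WT response of 0.89 ± 0.09 and a DMD response of -0.13 ± 0.08, *RPL3* one of 0.64 ± 0.08 and -0.40 ± 0.08. The translation factor *EEF1A1*, among the most abundant genes, had 1.13 ± 0.10 and 0.10 ± 0.10. *RPS20*, the most abundant gene with a called interaction, had neither response called, at 0.60 ± 0.08 and -0.27 ± 0.08. These changes are small, and the genes made up 279444 to 459267 CPM in the single samples, so that they weigh on the scaling itself. With library size alone, 6 had a negative interaction and 0 a positive one, and the list median was -0.35 while that of all genes was 0.25. Reads shared with the many near-identical copies of these genes are uncertain.

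In the 36 reversed genes both genotypes changed, each in its own direction. *EFEMP1*, the matrix protein fibulin-3, rose from 14.6, 62.1, 19.6 and 46.2 to 380.2, 683, 512 and 684 CPM in WT and fell from 93.6, 89.8, 68.8 and 80.1 to 56.1, 40.8, 38.9 and 42.7 in DMD (interaction -4.98 ± 0.25, edgeR adjusted *p* = 1.18e-10). DMD was above WT in PROL and below it in DIFF. *KAZALD1*, a secreted protein with an IGF-binding domain, rose from 48.1, 91.9, 56.6 and 53.9 to 191, 279, 264 and 349 CPM in WT and fell from 76.4, 69.6, 43.1 and 59.1 to 12.6, 23.3, 15.9 and 12.8 in DMD. *KIT*, the receptor of stem cell factor, had 4.37, 2.48, 2.18 and 0 CPM in WT_PROL and 24.8, 28, 46.6 and 34.1 in WT_DIFF, against 7.39, 16.4, 26.8 and 3.94 and 5.61, 5.84, 5.76 and 1.42 in DMD. Further genes that rose in WT and fell in DMD were *C1H14orf37* (1.41 ± 0.14 and -1.91 ± 0.16), *NGFRAP1* (0.89 ± 0.19 and -1.87 ± 0.19) and the galectin *LGALS3* (0.79 ± 0.08 and -0.64 ± 0.08).

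In the other direction, *BDNF* and the lipase *LIPG* had the largest positive interactions among called genes with at least 20 CPM in a group and over 3 counts in each. *BDNF*, a neurotrophin, was at 20.4, 52.2, 108 and 33.9 CPM in WT_PROL and 1.38, 16.2, 10.4 and 10.9 in WT_DIFF, and at 0, 8.86, 17.5 and 3.94 and 43.4, 120.2, 190.2 and 35.6 in DMD. Every WT animal fell and every DMD animal rose (WT response -2.42 ± 0.39, DMD response 3.76 ± 0.39, interaction 6.18 ± 0.55, edgeR adjusted *p* = 7.71e-07). *MSN*, moesin, which ties actin to the membrane, went from 1211, 857, 874 and 990.3 to 509.6, 470.3, 459 and 553 CPM in WT and from 682, 859, 666 and 763 to 1484, 1479.8, 1693 and 1390.3 in DMD. *STEAP1*, a membrane protein of the metalloreductase family, went from 287, 253, 207 and 193 to 88.2, 69.3, 80.3 and 54.5 CPM and from 69, 82.3, 103 and 88 to 149, 140, 177 and 165. *SPP1*, osteopontin, fell from 29.1, 9.94, 51.1 and 26.2 to 1.38, 4.42, 3.89 and 6.81 CPM in WT and rose from 38.2, 36.7, 66.4 and 44.7 to 102, 159.9, 330 and 55.6 in DMD. Its DMD response varied between animals and was smallest in animal 4.

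**Figure D3:**
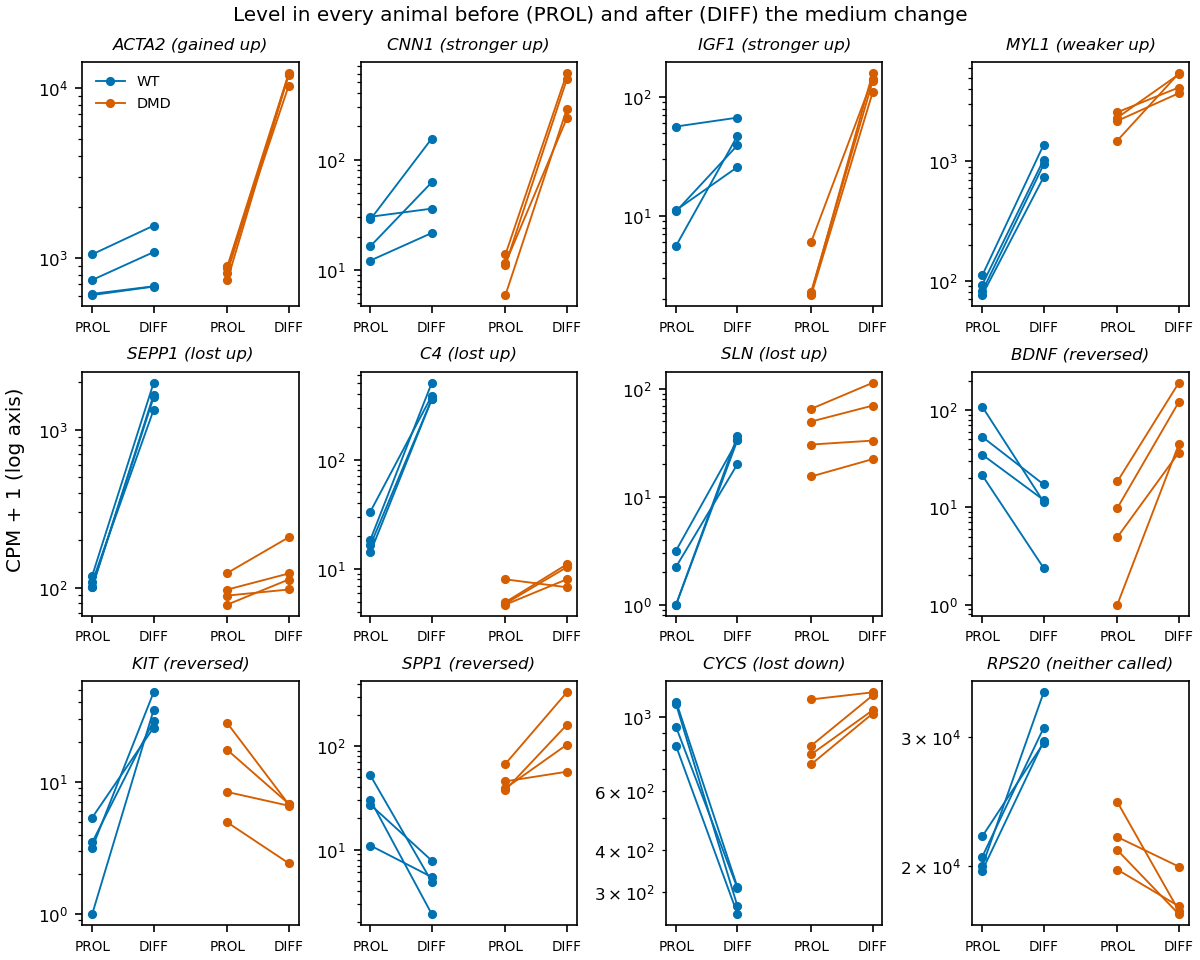
Level of 12 genes in every animal, as CPM + 1 on a log axis, with lines joining the PROL and DIFF sample of an animal (WT blue, DMD orange) and the response class in the panel title. The 4 DMD lines of *ACTA2* climb to between 10349 and 12208 CPM while the WT lines end at 1551 or lower, and the lines of *BDNF*, *KIT* and *SPP1* slope in opposite directions in the 2 genotypes.

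Inflammatory genes had 7 positive and 4 negative interactions among 19 tested (57.9% against 24.2%). Their median response was -0.63 in WT and 0.49 in DMD. In single animals the list median was -0.70, -0.62, -0.95 and -0.70 in WT and 0.63, 0.45, -0.01 and -0.14 in DMD. The lean to positive calls was not stable. Positive and negative calls numbered 6 and 6 with the DESeq2 test and 5 and 6 without DMD animal 1. In the other alternatives the positive calls were more. The chemokine *CCL2* fell in WT from 2372, 944, 1648 and 1377 to 293, 202, 176 and 155 CPM and rose in DMD from 355, 430.2, 347 and 632 to 1038, 661, 649 and 942 (interaction 3.81 ± 0.28, edgeR adjusted *p* = 8.08e-06). WT was the higher genotype in PROL and the lower one in DIFF. *PTGS2*, the inducible cyclooxygenase, fell in WT from 69.9, 23.6, 228 and 114 to 4.13, 0, 1.3 and 0 CPM and stood at 8.62, 13.9, 21 and 11.8 and 14, 12.8, 7.21 and 2.85 in DMD. *PTGES*, which makes prostaglandin E from the product of that enzyme, was reversed, with -1.01 ± 0.12 in WT and 0.65 ± 0.13 in DMD. *CXCL14*, another chemokine, rose in DMD from 48, 63.3, 134 and 44.7 to 441, 648, 1000.2 and 828 CPM, with 393, 104, 299 and 139 and 241, 39.8, 216 and 198 in WT. *CXCL12* was a lost rise, from 2.91, 7.45, 10.9 and 6.16 to 24.8, 51.6, 36.3 and 72.2 CPM in WT against 4.93, 2.53, 3.5 and 3.94 and 0, 3.5, 2.88 and 0 in DMD. Interferon and antigen presentation genes had 1 positive and 5 negative interactions among 25, close to the background at 24.0% called. *ISG12(A)*, induced by interferon, rose in WT from 99.1, 91.9, 60.9 and 60.1 to 504, 364, 391 and 267 CPM and stayed at 56.7, 34.2, 42 and 46 and 29.4, 57.2, 46.1 and 39.9 in DMD. *SLA-3*, a class I histocompatibility gene, had responses of 0.60 ± 0.14 and -1.13 ± 0.15, but its reads may be shared with near-identical class I genes.

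Of 7 tested genes of the IGF axis 2 had a positive and 1 a negative interaction (42.9% called against 24.2%). *IGF1*, which drives muscle growth, rose in WT from 10.2, 9.94, 55.5 and 4.62 to 24.8, 38.3, 66.1 and 46.3 CPM and in DMD from 1.23, 5.06, 1.17 and 1.31 to 157, 141, 108 and 134. The DMD response of 5.91 ± 0.47 exceeded the WT response of 1.39 ± 0.38 (edgeR adjusted *p* of the interaction = 0.000147). *IGFBP7* rose in DMD (1.95 ± 0.12) with 0.24 ± 0.12 in WT, and *IGFBP6*, a binding protein of IGF2, was reversed, from 1494, 1727, 1717 and 1774 to 1522, 2674, 3714 and 3262 CPM in WT and from 405, 475, 339 and 672 to 181, 128, 93.7 and 137 in DMD. The TGF-β and myostatin list had 2 positive and 4 negative interactions among 19 (31.6% called against 24.2%). Library size alone as the scaling gave 4 positive and 2 negative. Among the called members was *BMP4*, a lost rise from 35, 43.5, 43.5 and 27.7 to 147, 200.5, 187 and 236 CPM in WT. DMD had 51.7, 60.7, 81.6 and 72.2 in PROL and 70.1, 68.9, 122 and 86.9 in DIFF. *DKK3*, a secreted relative of Wnt inhibitors, was a gained rise from 43.1, 41.8, 54.8 and 49.9 to 248, 249.8, 275 and 248 CPM in DMD, with 157, 84.5, 159 and 119 and 128, 79.6, 92 and 121 in WT. *AREG*, a ligand of the EGF receptor, was a lost fall: WT went from 379, 106, 339 and 347 to 34.4, 10.3, 6.48 and 6.81 CPM and DMD from 143, 181, 349 and 139 to 172, 212, 264 and 92.6. *CALCB*, of the calcitonin family, was another, with -3.87 ± 0.45 in WT and 0.85 ± 0.41 in DMD.

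Cell cycle genes fell in both genotypes. Of 19 tested cell cycle genes, 16 fell in WT and 16 in DMD (14.0% and 11.7% of all genes), with a median response of -2.11 and -2.29. In this list 3 interactions were positive and 3 negative (31.6% called against 24.2%), but 6 and 2 by library size alone. *HMGB2*, a chromatin protein of dividing cells, fell from 5441, 6401, 4248 and 5954 to 875, 1207, 1145 and 1104 CPM in WT and from 9619.8, 7787, 8108 and 7864 to 706, 652, 476 and 664 in DMD. The architectural protein *HMGA1* had the more unequal fall, from 865, 743, 1012 and 836 to 412, 357, 453 and 489 CPM in WT and from 1997, 1708, 1546 and 2247 to 96.7, 131, 105 and 144 in DMD (interaction -2.96 ± 0.14, edgeR adjusted *p* = 1.3e-11). *CKS1B*, a subunit of cyclin-dependent kinases, fell in DMD (-1.42 ± 0.13), with a WT response of -0.22 ± 0.12. The tubulin *TUBA1B* fell in WT (-1.20 ± 0.08) and had -0.49 ± 0.08 in DMD, a change under the size limit and so counted as lost. Of 6 growth arrest genes 1 was called (16.7%), *CCNG1*, a p53 target, with 1.06 ± 0.08 in WT and 0.12 ± 0.08 in DMD. Among the chaperones of protein folding, 1 of 18 was positive and 2 negative (16.7% called against 24.2%), while 8 fell in DMD and 1 in WT (11.7% and 14.0% of all genes).

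*PSPH*, the last enzyme of serine synthesis, had a response of -1.06 ± 0.10 in WT and 0.42 ± 0.09 in DMD, and *EIF4EBP1*, a repressor of translation under mTORC1, -1.24 ± 0.12 and 0.41 ± 0.12. Both were lost falls. *PSIP1*, a transcriptional coactivator, was the gained fall with the smallest *p*. It was at 296, 373, 296 and 285 CPM in WT_PROL and 302, 402, 307 and 320.2 in WT_DIFF, and went from 442, 473, 478 and 474 to 104, 131, 85 and 95.4 in DMD. The growth factor midkine (*MDK*) had -0.36 ± 0.11 in WT and -1.91 ± 0.12 in DMD. Adrenomedullin (*ADM*), a vasodilator peptide, and *PAMR1*, a secreted protease-like protein, rose in both and less in DMD, by 4.58 and 1.92 log2 units for *ADM* and by 4.45 and 0.86 for *PAMR1*.

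**Figure D4:**
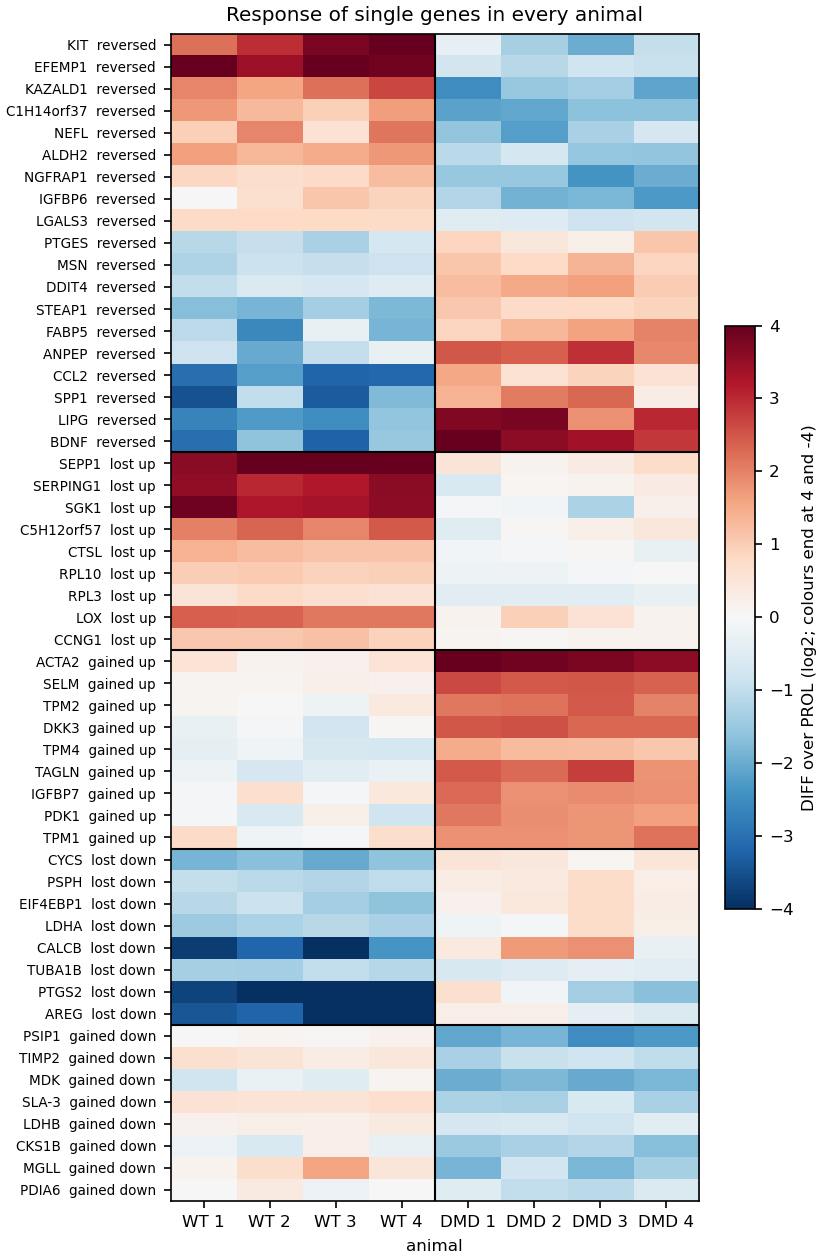
Response of 53 named genes (rows, grouped by class) in each of the 4 WT and 4 DMD animals (columns), as log2 of DIFF over PROL, red for a rise and blue for a fall, with colours ending at 4 and -4. Within each class the WT columns resemble each other and differ from the DMD columns, for example for *CYCS*, which fell in all 4 WT animals and in no DMD animal. This difference follows from the choice of genes, all of which had a called interaction.

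**Figure D5:**
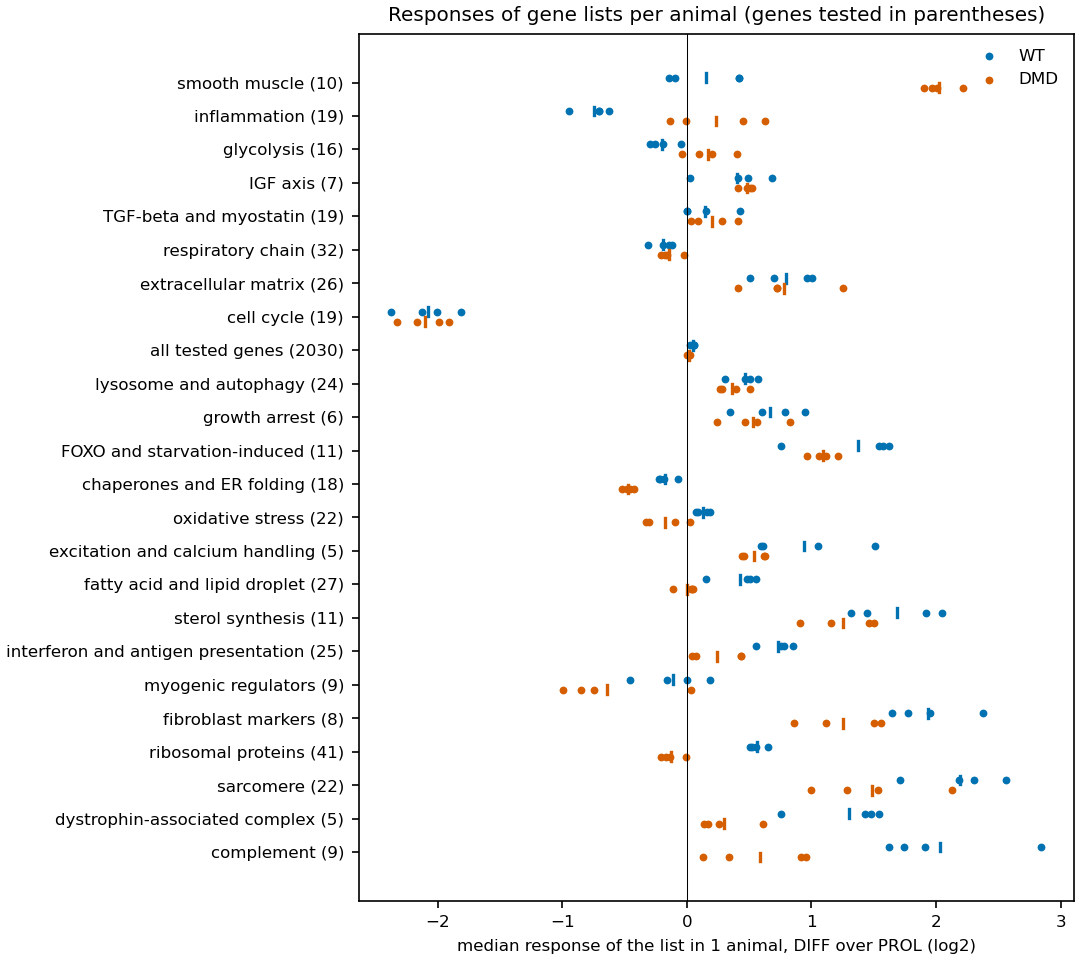
Median response of 23 gene lists and of all tested genes in each animal (x axis, log2 of DIFF over PROL; points are animals, short bars genotype means, and the number of tested genes is in parentheses). The smooth muscle list stands apart to the right in DMD, the genotype means of the complement, sarcomere and ribosomal protein lists lie further left in DMD than in WT, and the cell cycle list is at the same place in both.

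A few called genes had almost no counts in a group, and their fitted responses depend on the prior count. *TNFSF10*, the death ligand TRAIL, had 2 counts over the 4 WT_PROL samples and 284 in WT_DIFF, a ratio of 149 on library size (95% counting interval 41.0 to 1239, or 26.4 to 5938 with all counts halved). In DMD it had 8 and 18 counts, a ratio of 2.44 (1.01 to 6.49, or 0.682 to 10.9 with counts halved, which includes 1). *ASB9*, of a ubiquitin ligase family, had 6 and 160 counts in WT, a ratio of 28.04 (9.26 to 139 with counts halved), and 8 and 2 in DMD, a ratio of 0.272 (0.00551 to 2.74). *SLC46A3*, a lysosomal transporter, had 4 and 68 counts in WT and 8 and 0 in DMD. These intervals cover counting error only. The cytokine *IL8* (138 and 2 counts in WT, 154 and 16 in DMD) was just inside the limit with an adjusted *p* of 0.0497 in edgeR. Its call was lost in 11 of 19 alternatives, among them those without WT animals 2, 3 or 4 or without DMD animals 1 or 2, and its interaction of 2.83 was 4.82 without WT animal 1. At the size limit, *GNAS* (-0.60) was inside and *ADH5* (-0.59) outside, and at the limit of *p*, *TMCO3* (0.0497) was inside and *ASPN* (0.0504) outside.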

How the data were processed

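RNA of 16 SC samples was measured by 3′ mRNA sequencing with unique molecular identifiers. Per the labels and the study's methods, the authors used bcl2fastq, FastQC and MultiQC, removed duplicates by identifier, aligned with STAR 2.7.10b to susScr3 and deposited raw gene counts in 32 columns, 2 technical duplicates per sample, which were added here. Annotation and strand setting are not given in the sources used here, so overlapping and antisense genes cannot be told apart. All 124000 deposited counts are even, without explanation, so halved counts were run as an alternative.

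In R 4.3.3 with edgeR 4.0.16, genes were kept by filterByExpr (minimum count 10, minimum total 15) and scaled by TMM. A robust quasi-likelihood model had 1 term for each of 8 animals and 1 DIFF term per genotype, leaving 6 residual degrees of freedom, and *p* was adjusted over 2030 genes by Benjamini-Hochberg. The SE is the size of the log2 change over the root of *F*, intervals are at 95%, and CPM use TMM-scaled totals. Genotype effects within a state used its 8 samples. Deviations of the 2 samples of an animal from their group means correlated by 0.0998 to 0.172, best with the own animal in 8 of 8. The fit was tested on simulated data, where 66 of 97 genes given an interaction of 1 log2 unit were called. Of those given 2 units 91 of 100 were called, and of those given none 3 of 1803. Positive and negative interactions were assigned equally, to fewer genes than were called in the data. These counts therefore do not measure an error that comes from the scaling.

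The comparison, the 28 gene lists and the rule for named genes were chosen with earlier results of these data known. The rule takes, among called genes, the 10 largest interactions in each direction (at least 20 CPM in a group, more than 3 counts in each, no overlap of animals), 10 reversed genes and 4 per other class by *p*, 4 per list, the 5 most abundant and 4 with at most 3 counts in a group, besides *DMD*, *MYF5*, *MYOD1* and *MYOG*. *MYL9*, *VCL*, *SMTN*, *COL3A1*, *COL5A1*, *HES1*, *ID2* and the genes at the limits were named after their values were seen. Alternatives were other scalings, filters and tests (DESeq2 1.42.0, limma 3.58.1), single duplicates, no pairing and leaving out each animal. Promoter motifs were not analysed here, and 3 of the genes the rule takes are not reported here.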

Additional observations from a re-analysis of the deposited data

Results flagged for a closer look

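The response differed between DMD and WT for 492 genes by the interaction test, and both responses passed with opposite signs for 36 of them, as described above.

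In 258 groups of 4 values (the responses of named genes within a genotype, sample totals and *RN18S* shares), 17 held 1 animal far from the other 3, where chance alone marks about 1 group in 20. Among gained or stronger rises, *CNN1* rose by 4.33 log2 units in DMD animal 4 and by 5.42 to 5.55 in the others. Among lost rises, the WT response of *SEPP1* was 3.61 in animal 1 (3.98 to 4.04 in the others), that of *PDK4* 6.46 in animal 4 (4.28 to 4.33), that of *BMP4* 3.03 in animal 4 (2.03 to 2.17) and that of *MEF2C* 1.35 in animal 3 (2.40 to 2.55). *ASB9*, of very few counts, had -0.06 in DMD animal 2 (-0.999 to -0.92). Among the lost falls, *CYCS* had 0.07 in DMD animal 3 (0.44 to 0.50) and *RGS5* -1.55 in DMD animal 2 (-0.17 to 0.10). *SLA-3* stood apart in both genotypes, at 0.68 in WT animal 4 (0.55 to 0.57) and -0.62 in DMD animal 3 (-1.30 to -1.26). The WT response of *TNC* was -4.76 in animal 2 (-3.10 to -2.83), that of *MRTO4* -0.69 in animal 2 (-1.63 to -1.47), that of *RPS29* 0.75 in animal 2 (0.52 to 0.55) and that of *MYOG* 3.30 in animal 3 (0.59 to 1.03). *CCND2* had -0.13 in DMD animal 3 (0.65 to 0.80). The total of DMD_DIFF animal 2 was 1781174 counts, the highest of its group, and the *RN18S* share of DMD_PROL animal 4 was 20.4%.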

How the results depend on the processing

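Under 19 alternatives, the counts of called interactions and of response classes stayed within 1.5 times the reported ones except with library size alone as the scaling. There 401 interactions were positive and 139 negative, 47 rises and 182 falls were lost and 59 responses reversed. List medians moved up with all genes (0.25) under it, to 0.79 for glycolysis, 0.31 for the respiratory chain, -0.16 for fatty acid genes, 0.21 for interferon genes, 0.17 for the TGF-β list, 0.025 for chaperones, -0.35 for ribosomal proteins, 0.21 for lysosome genes and 0.17 for oxidative stress. Under the same scaling, positive and negative calls numbered 6 and 1 for lysosome genes, 7 and 1 for the respiratory chain and 3 and 0 for chaperones. These counts were 4 and 2 for the TGF-β list, 5 and 2 for fatty acid genes, 6 and 2 for cell cycle genes and 10 and 5 for matrix genes. For oxidative stress genes they were 3 and 4, and for interferon genes 2 and 3. Those of the smooth muscle (9 and 1), sarcomere (2 and 9) and complement (0 and 3) lists stayed the same. Without the pairing by animal (no replicate block) 476 interactions were called, 457 of them the same genes, and no class count moved by over 1.5 times. With 1 animal left out in turn, called interactions numbered 442 to 490 (197 to 236 positive, 241 to 255 negative), WT responses 620 to 665, DMD responses 509 to 558, lost rises 108 to 118, lost falls 58 to 64, gained rises 79 to 96, gained falls 39 to 46, reversed genes 32 to 41, weaker 26 to 36, stronger 18 to 29, and genotype effects 308 to 355 in PROL and 615 to 657 in DIFF. DESeq2 called 462 interactions, limma voom 497, the halved counts 491, and the single duplicates 374 and 399. Of 122 named genes with a called interaction, 93 kept the call in every alternative and none changed sign. Among the uncalled, *MYOD1* ran from -5.17 to 2.698 and *MYOG* from -1.58 to 0.64 with 1 animal left out, changing sign without WT animal 4 and WT animal 3, and *MYOG* was 0.020 with the first duplicate alone. The cause of these changes was not tested. Counts of a few molecules per group limit *MYOD1*, *MYOG*, *MYF5* and *DMD*. The samples of an animal are 1 culture per state, so culture and state within an animal cannot be told apart.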
